A study of Rattus norvegicus with 15 samples.

Results

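Calcium uptake by the gut lining was followed through 4 genes, Trpv6, S100g, Atp2b1 and Casr. They were found by the gene name that the scanner files gave each probe, with Calb3 taken as the older symbol of S100g. They were 4 of 33674 genes tested, and 6 of 41012 distinct probes on the arrays stood for them. All 4 genes passed the filter on dim probes. The arrays measured total RNA from suspensions of mucosal cells of male Sprague Dawley rats, taken from the duodenum, jejunum, ileum, colon and stomach, with 3 samples for each segment and 15 in all. No segment received a treatment or a genetic change. The segments were everted, digested for a short time with pronase, a mixture of proteases, and elutriated to enrich mucosal cells, so each sample holds a mixture of mucosal cell types rather than 1 purified type. The 3 samples of a segment were independent isolations, and the labels do not say whether each came from its own animal.

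Active calcium uptake in the intestine runs through the epithelial cell in steps. Calcium enters across the brush border through the channel Trpv6, is carried and buffered in the cytosol by the small vitamin D-dependent calbindin that S100g encodes, and is pumped out across the basolateral membrane by calcium ATPases such as Atp2b1. The calcium-sensing receptor Casr is a receptor coupled to G proteins that reports the calcium level outside the cell, and in the stomach it is known from gastrin cells and acid-secreting glands. The hormonal form of vitamin D acts through its nuclear receptor Vdr and is known to raise S100g and Trpv6 in the duodenum, the best known site of active calcium uptake, while passive uptake between cells goes on along the whole small bowel.

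Since every level below is the brightness of a 60-base probe, the probes are shown here, with the positions that the scanner files gave in rat build rn4. No transcript annotation of that build was used here, so exons and untranslated regions are not stated. The S100g probe lay at chrX:52449257-52449316 on the plus strand. A further probe, which older files named Calb3 and newer ones only by a transcript tag, lay 2074 bases away at chrX:52447183-52447242 but on the minus strand. It was therefore kept apart from S100g and is called the opposite-strand probe. The Trpv6 probe lay at chr4:69332349-69332408 on the minus strand and the Casr probe at chr11:66084413-66084471 on the minus strand. Atp2b1 had 2 probes on the plus strand, the brighter at chr7:36599842-36599901 and the other 41513 bases away at chr7:36558329-36558388. The Atp2b1 pair and the opposite-strand probe are shown whole because their readings are set against those of a partner probe, and the first 30 bases are shown for the others.
Atp2b1, brighter probe: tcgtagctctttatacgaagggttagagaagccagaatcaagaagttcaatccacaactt
Atp2b1, second probe: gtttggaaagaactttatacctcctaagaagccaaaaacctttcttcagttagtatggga
S100g locus, opposite-strand probe: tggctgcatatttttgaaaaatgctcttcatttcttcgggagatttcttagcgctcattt
S100g, first 30 bases: cgacaccacctactgattgaatcctatcca
Trpv6, first 30 bases: gctctcaccaaacatcaaaacagaatgaaa
Casr, first 30 bases: ctaatggagggaaaggctatccagttgaga

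The level of a gene is given as its signal relative to the 75th percentile of all probes of the same sample, so a relative signal of 1 equals that percentile. Levels of different probes are not set against each other, because probes differ in brightness for reasons other than the amount of RNA. Differences between segments come from 1 limma model over all genes, and a difference was called when its Benjamini-Hochberg adjusted p was under 0.05. Depth cannot be counted on arrays, and the number of arrays limits the precision. The percentage of probes well above background ran from 44.4 in ileum 1 to 97.1 in stomach 3. The scanner software used a lower limit for the stomach than for the duodenum, jejunum and ileum, and the limit for the colon was not given. Each duodenal sample shared an array with a jejunal sample of the other dye, and colon 1 and 2 shared an array. All 3 colon samples lay on 1 slide that held no other segment, so the colon and its slide cannot be told apart. Stomach arrays were scanned on a day of their own at another resolution, and the ileum and colon were scanned on further days, so for every comparison except duodenum against jejunum the scan and the segment cannot be told apart.

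The labels were set against marker genes first. All 5 gastric markers were called over the 5 segments, and the gastric gene with the widest range, the proton pump subunit Atp4a, had a geometric mean relative signal of 0.0462 in the duodenum, where 1 of 3 samples was well above background, and 56.1 in the stomach. The ileal bile acid binding protein Fabp6 reached 49.2 in the ileum, against 0.692 in the colon. The carbonic anhydrase Car1 reached 126 in the colon and 1.12 in the stomach, and its highest jejunal reading was 7.08. Of the other colonic markers, Aqp8 was highest in the colon too, but Slc26a3 was highest in the duodenum (7.59 against 7.05 in the colon). The 5 absorptive markers (Si, Fabp2, Lct, Apoa4 and Slc5a1) had a mean log2 level of 2.20 to 2.76 in duodenal samples, 3.74 to 5.52 in jejunal ones, 1.11 to 3.24 in ileal ones, -1.93 to -1.76 in the colon and -1.78 to -1.54 in the stomach. The 3 fibroblast markers had a mean log2 level of 3.24 to 3.39 in the stomach and of 0.19 or less in each of the other 12 samples. They did not all run this way, since Col1a1 was highest in the jejunum (geometric mean relative signal 3.38, against 2.85 in the stomach). Decorin (Dcn), the fibroblast marker with the widest range, had a geometric mean relative signal of 0.377 in the duodenum and 57.9 in the stomach. Spots were saturated in 3 samples for Fabp6, in 2 for Fabp2 and in 1 each for Atp4a, Apoa4 and Dcn. Of the other gastric markers, Atp4b, Gkn1 and Pgc were saturated in 3 samples each and Muc5ac in 1. The highest levels that rest on these markers may therefore be too low. The part of these cell types in the results below was not tested.

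Trpv6, the entry channel of the brush border, was highest in the duodenum, and its signal in the ileum was below that of every other segment, the stomach included. Its relative signal was 3.64, 4.09 and 3.43 in duodenum 1, 2 and 3, and 2.62, 1.78 and 1.80 in jejunum 1, 2 and 3. It was 0.455, 0.593 and 0.561 in ileum 1, 2 and 3, 2.85, 2.38 and 2.41 in colon 1, 2 and 3, and 0.901, 1.12 and 0.972 in stomach 1, 2 and 3. Ileum 1, 2 and 3 lay 1.56-fold, 10.8-fold and 8.43-fold over the lowest signal well above background of the same sample. The stomach samples lay 41.6-fold to 71.3-fold over theirs, so the reading of ileum 1 was near its floor. The samples of the segments did not overlap, except that jejunum 1 lay among the colon samples. Trpv6 was 7.42-fold higher in the duodenum than in the ileum (log2 difference 2.89 ± 0.24 SE, adjusted p = 2.38e-06), 3.85-fold higher than in the stomach (1.94 ± 0.23, adjusted p = 8.55e-06) and 1.89-fold higher than in the jejunum (0.92 ± 0.19, adjusted p = 0.0347). In the ileum it fell below the colon by 5.07-fold (adjusted p = 3.39e-05) and below the stomach by 1.93-fold (adjusted p = 0.0061), and the jejunum exceeded the ileum by 3.93-fold (adjusted p = 0.000193). Both the jejunum (2.04-fold, adjusted p = 0.00292) and the colon (2.63-fold, adjusted p = 0.000751) exceeded the stomach. In such cell mixtures, fewer cells of a type and less RNA per cell cannot be told apart. From high to low, the order was duodenum, colon, jejunum, stomach and ileum. In this order the neighbours duodenum and colon were not called apart (duodenum over colon 1.46, 95% interval 0.996 to 2.15, adjusted p = 0.143), nor were jejunum and colon (jejunum over colon with an interval of 0.525 to 1.15, adjusted p = 0.332). The call of duodenum against jejunum was lost under 13 of the 29 alternatives, with adjusted p up to 0.454 without duodenum 1, although the log2 difference stayed between 0.82 and 1.05. Under normexp background correction, the duodenum was called above the colon (log2 difference 1.04, adjusted p = 0.00273), and the ileum was lower than the colon by 1.62 rather than 2.34 on the log2 scale.

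S100g, the cytosolic carrier, spanned the widest range of the 4 genes, and its stomach signal was a small fraction of that in any intestinal segment. Its relative signal was 140, 197 and 171 in duodenum 1, 2 and 3, and the spots of duodenum 1 and 3 were saturated, so those 2 readings are lower limits, the order of the 3 duodenal samples is not known, and each fold of the duodenum over another segment below is at least the value given as far as these readings go. It was 82.6, 33.5 and 34.4 in jejunum 1, 2 and 3, and 7.93, 11.3 and 8.78 in ileum 1, 2 and 3. In colon 1, 2 and 3 it was 56.3, 43.9 and 57.7, and in stomach 1, 2 and 3 it was 0.475, 0.548 and 0.530. Every duodenal sample lay above every other sample, and the colon samples lay far above the ileal ones, within the spread of the jejunum. The duodenum exceeded the stomach by at least 332-fold (log2 difference 8.38 ± 0.31 SE, adjusted p = 1.38e-11), the colon exceeded it by 103-fold (6.69 ± 0.36, adjusted p = 1.17e-09), the jejunum by 88.3-fold (6.47 ± 0.30, adjusted p = 1.23e-10) and the ileum by 17.5-fold (4.13 ± 0.31, adjusted p = 4.4e-08). Within the small bowel S100g was higher in the duodenum than in the jejunum (at least 3.76-fold, adjusted p = 0.000958) and the ileum (at least 19.0-fold, adjusted p = 9.2e-07), and higher in the jejunum than in the ileum (5.06-fold, adjusted p = 0.000611). The duodenum also exceeded the colon by at least 3.21-fold (adjusted p = 0.00263), and the ileum was below the colon by 5.93-fold (adjusted p = 0.000225). From high to low the order was duodenum, colon, jejunum, ileum and stomach, and the neighbours jejunum and colon were not called apart (jejunum over colon with a 95% interval of 0.505 to 1.45, adjusted p = 0.682). The call of duodenum against jejunum was lost without jejunum 3 (log2 difference 1.67, adjusted p = 0.130), and that of duodenum against colon was lost without the 2 saturated duodenal samples (1.57, adjusted p = 0.0598). Without those 2, duodenum 2 alone exceeded the stomach by 8.30, the ileum by 4.22 and the jejunum by 1.84 on the log2 scale, all still called, with its spread taken to be that of the other segments. Normexp background correction kept the calls but gave smaller log2 differences for duodenum against ileum (3.45 rather than 4.25), jejunum against ileum (1.49 rather than 2.34) and ileum against colon (-1.56 rather than -2.57), as did quantile normalization (3.62, 1.74 and -1.61).

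Atp2b1, the basolateral calcium pump, was higher in the duodenum than in the stomach and ileum, with a smaller range than the other 2 genes of the pathway. By its brighter probe its relative signal was 9.52, 14.05 and 6.86 in duodenum 1, 2 and 3, and 9.05, 3.23 and 3.57 in jejunum 1, 2 and 3. It was 3.03, 2.66 and 2.16 in ileum 1, 2 and 3, 3.82, 3.05 and 5.89 in colon 1, 2 and 3, and 2.57, 2.05 and 2.71 in stomach 1, 2 and 3. Duodenum and jejunum overlapped through jejunum 1 alone, which lay above duodenum 3, while all duodenal samples lay above all samples of the colon, ileum and stomach. The duodenum exceeded the stomach by 4.06-fold (log2 difference 2.02 ± 0.37 SE, adjusted p = 0.000645), the ileum by 3.87-fold (1.95 ± 0.39, adjusted p = 0.011) and the colon by 2.37-fold (1.25 ± 0.42, adjusted p = 0.041). The difference of duodenum and jejunum was not called (duodenum over jejunum 2.10, 95% interval 1.36 to 3.24, adjusted p = 0.162), and it was called without jejunum 1 (log2 difference 1.4, adjusted p = 0.0281), without colon 3 (1.12, adjusted p = 0.0305) and under normexp background correction (1.25, adjusted p = 0.033). The geometric means ran from high to low in the order duodenum, jejunum, colon, ileum and stomach, and no neighbours in that order were called apart. For ileum over stomach the 95% interval was 0.612 to 1.80. The call against the colon was lost without any 1 of 9 samples (adjusted p up to 0.101) and the call against the ileum was lost without duodenum 1 (adjusted p = 0.160), without ileum 3 (adjusted p = 0.0567) or without duodenum 1 and 3 (adjusted p = 0.247).

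Casr, the calcium sensor, was dim in every segment, and no pair of segments was called apart for it. Its relative signal was 0.132, 0.109 and 0.151 in duodenum 1, 2 and 3, 0.209, 0.186 and 0.120 in jejunum 1, 2 and 3, and 0.0732, 0.231 and 0.166 in ileum 1, 2 and 3, with ileum 1 not well above background. In colon 1, 2 and 3 it was 0.161, 0.164 and 0.174, and in stomach 1, 2 and 3 it was 0.282, 0.273 and 0.295. The 3 stomach samples lay above all 12 others, and the intestinal segments overlapped among themselves except for duodenum and colon. Limma called 0 of the 10 pairs of segments for Casr, and 2 of them had an unadjusted p under 0.05. These were duodenum against stomach (log2 difference -1.07 ± 0.40 SE, adjusted p = 0.0675) and ileum against stomach (-1.06 ± 0.40, adjusted p = 0.0705). The intervals for the segment over the stomach were 0.264 to 0.862 for the duodenum, 0.331 to 1.05 for the jejunum, 0.265 to 0.866 for the ileum and 0.308 to 1.22 for the colon. The median difference of all genes from the stomach was itself -0.25 to -0.32 on the log2 scale under this scaling, and under normexp background correction Casr in the colon was 0.16 above the stomach. The duodenum was called below the stomach when the median of bright probes set the scale (adjusted p = 0.046), without a dye term (adjusted p = 0.0381) and without ileum 1 (adjusted p = 0.0198). Without ileum 2 the ileum was called below the stomach (adjusted p = 0.0273), and without both jejunum 1 and ileum 1 the duodenum (adjusted p = 0.010) and the jejunum (adjusted p = 0.0425) were.

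**Figure D1:**
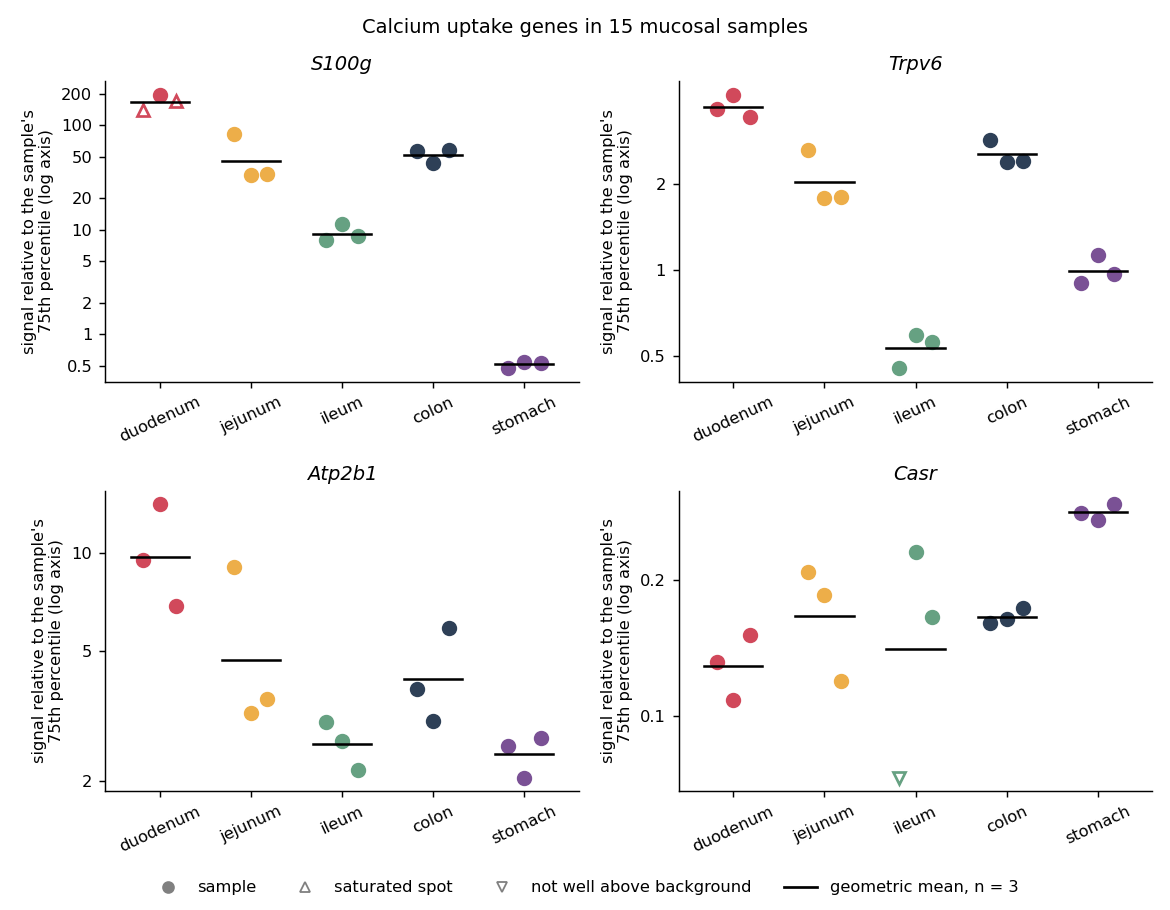
Signal of Trpv6, S100g, Atp2b1 (brighter probe) and Casr in each of 15 samples, on a log axis relative to the sample's 75th percentile, by segment from duodenum to stomach. Points are samples 1 to 3 from left to right, lines are geometric means of 3, upward triangles are saturated spots (S100g in duodenum 1 and 3) and the downward triangle is not well above background (Casr in ileum 1); Trpv6 and S100g dip in the ileum and return in the colon, where S100g reached 43.9 to 57.7.

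**Figure D2:**
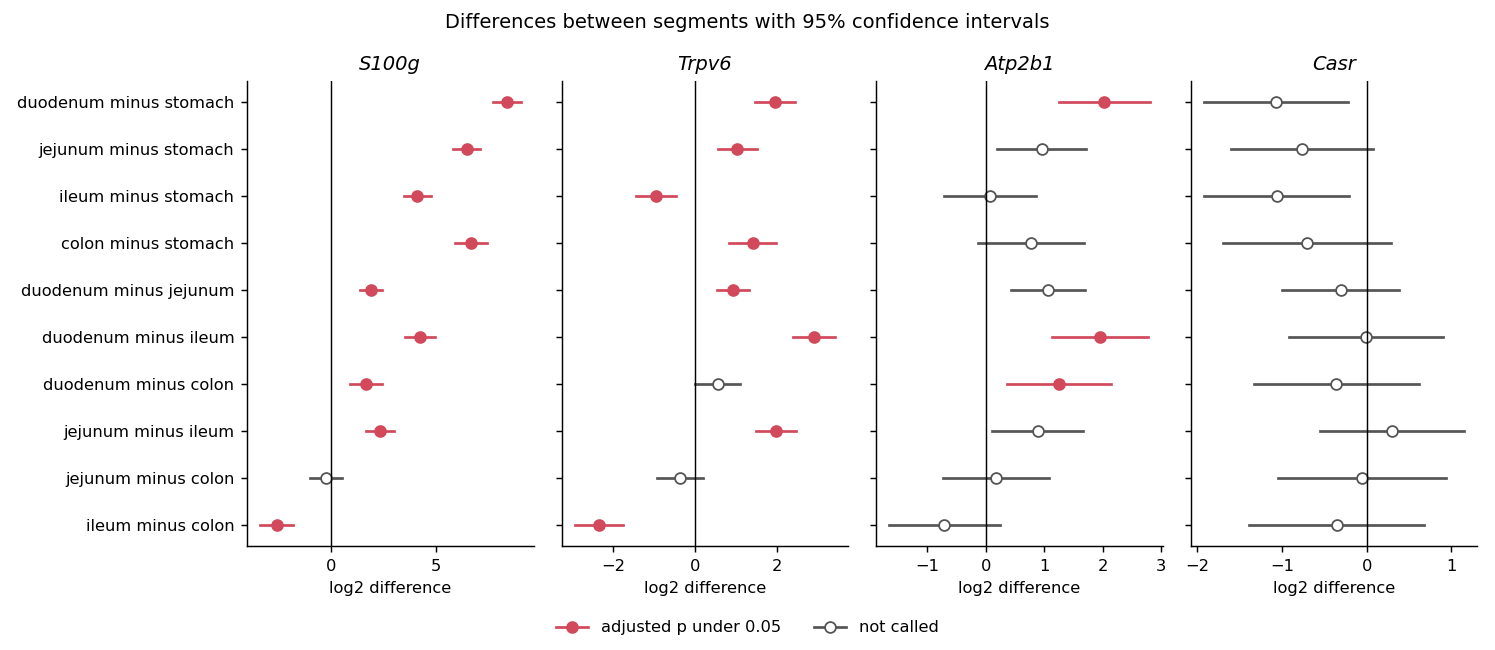
Log2 differences between segments (points) with 95% confidence intervals (bars) from the limma fit, for 10 pairs of segments and 4 genes, each panel with its own axis. Filled red points were called, which holds for 9 pairs for S100g, 8 for Trpv6, 3 for Atp2b1 and 0 for Casr.

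Read against all genes, the 4 differed from one another in how often they were called. Of the 10 pairs of segments, 9 were called for S100g, 8 for Trpv6, 3 for Atp2b1 and 0 for Casr. The F test over the 5 segments called S100g (F = 198, adjusted p = 7.49e-11), Trpv6 (F = 40.2, adjusted p = 1.14e-06) and Atp2b1 (F = 9.14, adjusted p = 0.00245) but not Casr (F = 2.44, adjusted p = 0.149), beside 42.1% of all genes. For duodenum against stomach 3 of the 4 were called, beside 22.7% of all genes. For jejunum against stomach it was 2 of 4, beside 21.5%, for ileum against stomach 2 of 4, beside 22.4%, and for colon against stomach 2 of 4, beside 35.2%. Calls within the intestine were rarer over all genes. Between duodenum and jejunum, 2 of 4 were called, beside 0.505%, between duodenum and ileum 3 of 4, beside 2.83%, and between jejunum and ileum 2 of 4, beside 4.25%. Against the colon, 2 of 4 were called for the duodenum, beside 23.3%, 0 of 4 for the jejunum (0 at an unadjusted p under 0.05), beside 25.5%, and 2 of 4 for the ileum, beside 15.4%.

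The duodenal and jejunal samples that shared an array could be compared within it, in both dye orientations. S100g was at least 4.09-fold higher in duodenum 1 and at least 5.11-fold higher in duodenum 3, the saturated readings, and 2.38-fold higher in duodenum 2 than in the jejunal sample of the same array. Trpv6 was higher on each array too, by 2.02-fold, 1.56-fold and 1.93-fold, and so was Atp2b1 by its brighter probe, by 2.67-fold, 1.55-fold and 2.12-fold. Casr had no common direction, being 1.1-fold higher in duodenum 1 and lower by 1.91-fold in duodenum 2 and by 1.23-fold in duodenum 3. These within-array folds are values from 3 arrays, with no test. Duodenum 2 and jejunum 1 shared an array. Each was the highest of its segment for Trpv6 and for the brighter Atp2b1 probe, and jejunum 1 was also the highest jejunal sample for S100g. Jejunum 1 also had the highest mean log2 level of the absorptive markers, 5.52 against 3.74 and 3.77 in jejunum 2 and 3, and the lowest percentage of probes well above background of the jejunum, 52.4 against 87.9 and 89.6. The part of these in the high readings of jejunum 1 was not tested.

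**Figure D3:**
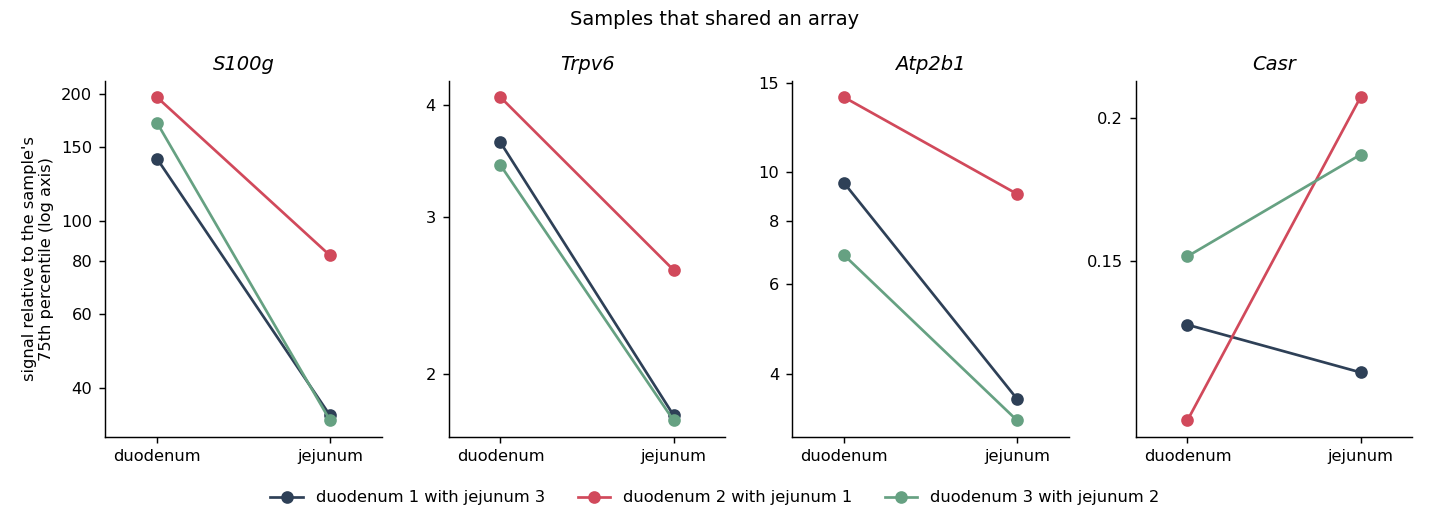
Relative signal (log axis) of each gene in the duodenal sample (left) and the jejunal sample (right) of the same array, 1 line for each of 3 arrays. All lines fall toward the jejunum for S100g, Trpv6 and Atp2b1, and the Casr lines cross.

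The second Atp2b1 probe told how far the Atp2b1 reading depended on the probe, while the opposite-strand probe is no second reading of S100g. The second Atp2b1 probe read 10.2, 14.3 and 7.47 in duodenum 1, 2 and 3, and 16.3, 2.95 and 2.75 in jejunum 1, 2 and 3. It read 2.68 at most in the ileum, 3.55 to 3.97 in the colon and 1.74 to 2.26 in the stomach. The duodenum was again called above the stomach (5.45-fold, adjusted p = 0.00105) and the ileum (6.51-fold, adjusted p = 0.00671), but not above the colon (2.73-fold, adjusted p = 0.0611). Within arrays, this probe was lower in duodenum 2 than in jejunum 1, by 1.14-fold, so the probes disagreed in direction on 1 of 3 arrays. The opposite-strand probe at the S100g locus read 0.998, 0.909 and 1.52 in duodenum 1, 2 and 3 and at most 0.675 in any other sample. Its duodenal signal was called above the stomach (3.50-fold, adjusted p = 0.000391), jejunum (2.56-fold, adjusted p = 0.0206) and ileum (2.85-fold, adjusted p = 0.0205), and its colon signal above the stomach (1.97-fold, adjusted p = 0.0435). Jejunum and ileum, which S100g itself separated from the stomach by 88.3-fold and 17.5-fold, were not called apart from the stomach by this probe (adjusted p = 0.318 and 0.541).

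**Figure D4:**
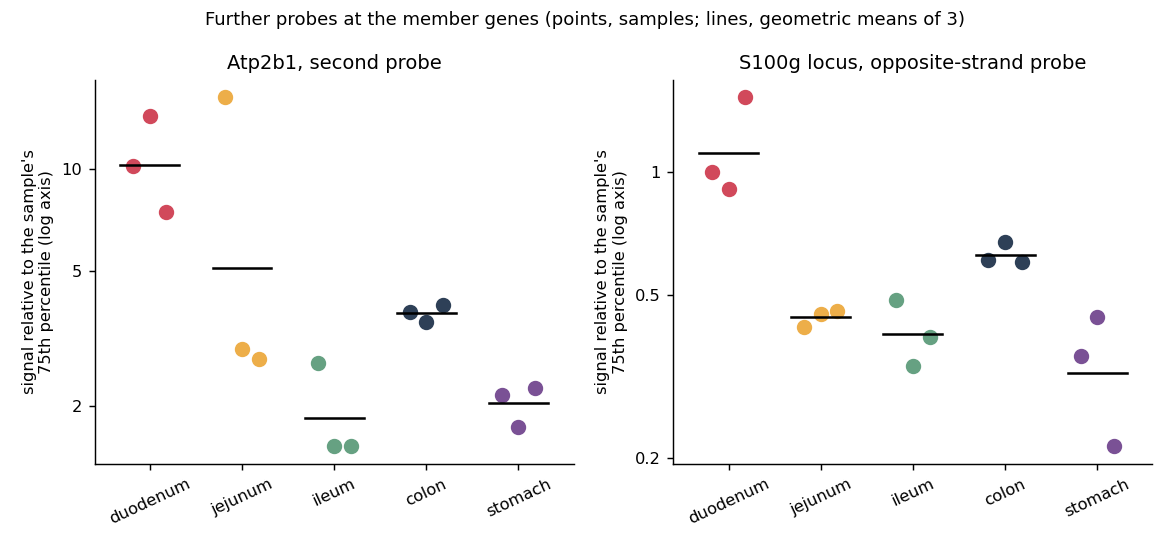
Relative signal (log axis) of the second Atp2b1 probe and of the opposite-strand probe at the S100g locus in each of 15 samples, by segment from duodenum to stomach, with geometric means of 3 as lines. Jejunum 1 reads 16.3 by the second Atp2b1 probe, above all duodenal samples, and the opposite-strand probe is highest in the duodenum.

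The promoters of 3 of the genes were available from RefSeq in build GRCr8, and that of S100g was not used here. Nuclear receptors such as Vdr with its partners recognise paired copies of a hexamer close to AGGTCA. The 250 bases before the start of Trpv6, chr4:71489668-71489917 on the minus strand, held 1 match, with its first base at -175, shown here in capitals.
Trpv6, 250 bases before the start: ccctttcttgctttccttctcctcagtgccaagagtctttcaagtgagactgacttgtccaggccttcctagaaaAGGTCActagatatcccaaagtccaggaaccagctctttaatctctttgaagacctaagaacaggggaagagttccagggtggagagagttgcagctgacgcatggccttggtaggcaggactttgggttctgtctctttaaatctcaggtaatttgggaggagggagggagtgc
Casr held 1 match on the other strand and Atp2b1 held 0 in the same window. AGGTCA occurs on either strand in 14.1% of 33469 rat promoters of this length, so a match is common and only describes the letters present.

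Other genes of calcium handling were read as lists. Beside the lists, the F test over the 5 segments called 42.1% of all genes, duodenum against stomach 22.7% (10.3% higher and 12.4% lower) and colon against stomach 35.2% (14.2% higher and 21% lower). Where a list is set against the stomach, the median of all genes was -0.32 for the duodenum, -0.28 for the jejunum, -0.25 for the ileum and -0.26 for the colon on the log2 scale. Among genes for calcium entry, 2 of 4 were called over the segments. Besides Trpv6 this was the voltage-gated channel subunit Cacna1d, lower in every intestinal segment than in the stomach, with a geometric mean relative signal of 0.276 in the duodenum and 1.55 in the stomach (6.38-fold lower, adjusted p = 0.00523). Trpv5, the close relative of Trpv6 best known from the kidney, was not called (adjusted p = 0.391) and ran from 1.04 to 2.03 over all samples.

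All 7 cytosolic calcium binding genes were called over the segments, but in different patterns. Calb1, the larger calbindin, did not follow S100g. It was lower in the colon (0.121) than in the jejunum (0.551), which exceeded it by 4.46-fold (adjusted p = 0.00174), and it was lower in the ileum, where 2 of 3 samples were well above background, than in the stomach by 3.14-fold (adjusted p = 0.00374). Parvalbumin (Pvalb) was not well above background in any small bowel sample, and the stomach exceeded the duodenum at least 3.01-fold (adjusted p = 0.00052 in the fit), a call lost under normexp background correction. For duodenum minus stomach 3 of the 7 were higher and 1 lower, with a median of 0.13. Under normexp background correction the log2 difference of Calb1 was 1.11 rather than 2.16 for jejunum minus colon and -1.01 rather than -1.65 for ileum minus stomach, both still called.

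Of the 7 tested genes that move calcium out across membranes, 4 were called over the segments, and Slc8a2 did not pass the filter on dim probes. Only Atp2b1 among them was higher in the duodenum than in the stomach. The pump Atp2b2 was 14.1-fold lower in the colon than in the stomach (adjusted p = 1.11e-05), with relative signals of 0.0262 to 0.0503 in the colon, where 1 of 3 samples was well above background, and 0.442 to 0.585 in the stomach. The mitochondrial sodium-calcium exchanger Slc8b1 was 5.12-fold higher in the colon (10.97 to 14.9) than in the stomach (2.41 to 2.96, adjusted p = 5.56e-05), and the duodenum was 9.52-fold below the colon (adjusted p = 2.9e-06). The exchanger Slc8a3 was lower in the colon than in the stomach by 2.50-fold (adjusted p = 0.0157). The list's median for duodenum minus stomach was -0.38. Under normexp background correction Atp2b2 fell by 1.13 rather than 3.82 on the log2 scale for colon minus stomach and kept its call.

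Of 10 tested genes for vitamin D action, 4 were called over the segments, and Gc did not pass the filter. The receptor Vdr was higher in the duodenum (0.716 to 1.16) than in the stomach (0.211 to 0.272) by 3.39-fold (adjusted p = 0.00265), and was not called between any intestinal segments. The activating enzyme Cyp27b1 ran the other way, with 0.724 to 1.43 in the duodenum and 4.47 to 6.42 in the stomach (5.56-fold lower, adjusted p = 2.96e-06). The receptor partner Rxrb was 3.35-fold higher in the ileum than in the stomach (adjusted p = 0.00336). The protein disulfide isomerase Pdia3 was 1.98-fold higher in the duodenum than in the stomach (adjusted p = 0.0233), a call lost under quantile normalization. The inactivating enzyme Cyp24a1, a classical target of Vdr, was dim and not called (adjusted p = 0.606), at 0.0424 to 0.496 in all samples. For duodenum minus ileum limma called 0 of the 10 (0 at an unadjusted p under 0.05), beside 2.83% of all genes.

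Of 6 tested genes listed as partners of the Trpv6 and Trpv5 channels, whether they promote or restrain them, 5 were called over the segments. In the duodenum 5 were higher and 0 lower than in the stomach, with a median of 1.3, and in the colon 4 were higher and 0 lower. The remaining gene, Kl, averaged 0.164 in the duodenum and 0.340 in the stomach and was not called over the segments (adjusted p = 0.212). Pdzd3 was not analysed here. S100a10 was 11.4-fold higher in the duodenum than in the stomach (adjusted p = 2.99e-08) and 52.8-fold higher in the colon (adjusted p = 7.59e-10), and its binding partner Anxa2 was 6.78-fold higher in the duodenum (adjusted p = 3.02e-06). Bspry was 2.73-fold higher in the duodenum (adjusted p = 0.000763) and 6.92-fold higher in the colon (adjusted p = 5.03e-06) than in the stomach, and the vesicle GTPase Rab11a 1.99-fold higher in the duodenum (adjusted p = 0.0039), a call lost under normexp background correction (adjusted p = 0.0532). Between duodenum and ileum limma called 0 of the 6 (0 at an unadjusted p under 0.05), with a median of 0.06 beside -0.07 for all genes.

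Claudins seal and tune the path between cells, and 2 of 4 listed for calcium were called over the segments. Cldn15 was higher in the duodenum (1.41 to 1.91) than in the stomach (0.107 to 0.143) by 13.2-fold (adjusted p = 2.11e-07) and was also higher there than in the colon, by 4.97-fold (adjusted p = 0.000248). Cldn2, a pore for cations and water, was 4.33-fold higher in the ileum than in the stomach (adjusted p = 0.0104), and the jejunum, well above background in 2 of 3 samples, was 4.54-fold below the ileum (adjusted p = 0.0358), a call lost under normexp background correction.

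Genes of calcium sensing and its hormones were called for 4 of 10, Casr not among them. The G protein subunit Gna11, through which Casr can signal, was 9.80-fold higher in the duodenum than in the stomach (adjusted p = 3.4e-06), with 1.67 to 2.30 in the duodenum, 0.157 to 0.382 in the colon and 0.175 to 0.196 in the stomach. The parathyroid hormone-related peptide Pthlh was 5.56-fold lower in the duodenum (0.515 to 1.22) than in the stomach (3.80 to 5.16, adjusted p = 2.4e-05). The hormone receptor Pth1r was not well above background in any colon sample and the stomach exceeded the colon at least 5.77-fold, a call lost under normexp background correction. It passed the filter on dim probes through the stomach alone, so its call against the stomach is not independent of that filter. Gastrin (Gast), which Casr is known to release from gastric cells, ran from 6.49 to 20.4 in the jejunum, from 1.5 to 2.81 in the ileum and from 6.50 to 6.69 in the stomach, and was 3.59-fold lower in the ileum than in the stomach (adjusted p = 0.00178).

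**Figure D5:**
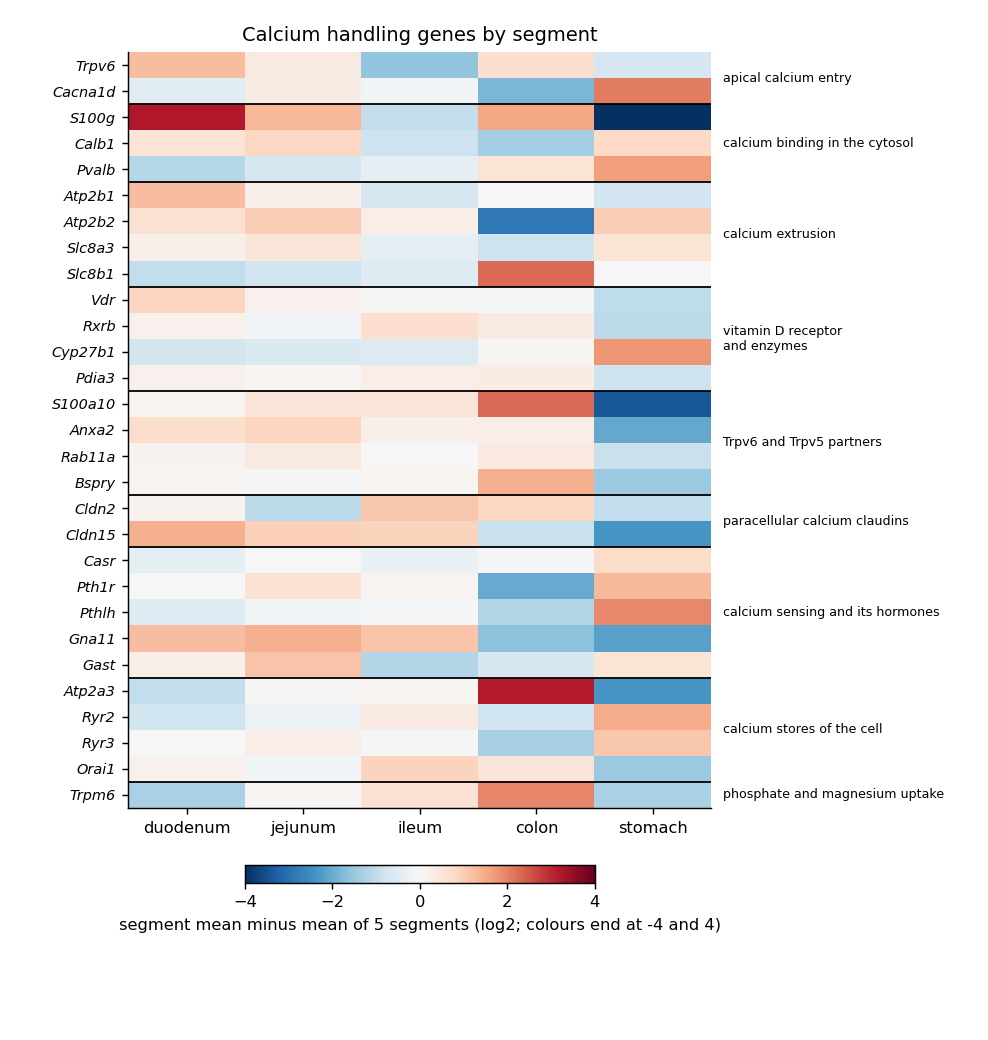
Segment means of calcium handling genes and the 4 members, each minus the gene's mean over 5 segments (log2, colours end at -4 and 4), by segment from duodenum (left) to stomach (right) and grouped by list. S100g is darkest blue in the stomach and deep red in the duodenum, and S100a10, Slc8b1, Atp2a3 and Trpm6 are reddest in the colon.

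Genes whose levels ran most like each member were sought over the 15 samples among 14842 genes with an established symbol and a value in every sample. The samples fall into 5 segments with their own scans, so each correlation mainly compares segment means, and no p is given. S100g ran most like Ddc, the aromatic amino acid decarboxylase (Pearson r = 0.985), followed by the stress-induced growth arrest gene Gadd45a (0.973), the actin nucleation subunit Actr2 (0.965), the inducible heat shock protein Hspa1a (0.965) and the cytochrome Cyb5b (0.960). Ddc had geometric mean relative signals of 89.0 in duodenal, 56.2 in jejunal and 22.6 in ileal samples, 48.1 in the colon and 3.08 in the stomach. Hspa1a read 92.6, 124 and 79.1 in duodenum 1, 2 and 3, 108, 27.1 and 24.3 in jejunum 1, 2 and 3 and 1.19, 1.44 and 1.36 in stomach 1, 2 and 3. Jejunum 1 was thus the highest jejunal sample for Hspa1a as it was for S100g, and the part of this sample in the correlation was not tested. Trpv6 ran most like the cyclophilin gene Ppial4g (0.933), the ferritin chain Fth1 (0.925), the chaperone Hsp90aa1 (0.905), the alcohol dehydrogenase Adh1c (0.902) and the small GTPase Arf1 (0.902), and the first 2 belong to families with near-identical copies. Adh1c shared the low ileum, with 93.9 in duodenal, 20.3 in jejunal and 0.745 in ileal samples, 43.4 in the colon and 0.337 in the stomach. Among the genes most like Atp2b1 were the adhesion protein Mpzl2 (0.924), the fatty acid elongase Elovl6 (0.917), the copper pump Atp7b (0.914) and the chaperone Hspa8 (0.913). Casr ran most like Tamalin (0.951), Nrap (0.923), Mark4 (0.909), Rassf10 (0.908) and Polr3a (0.905), all of them higher in the stomach than in the duodenum by geometric mean. Among the members the coefficients were 0.722 for S100g with Trpv6, 0.768 for S100g with Atp2b1 and 0.786 for Trpv6 with Atp2b1, while Casr had -0.595 with S100g, -0.162 with Trpv6 and -0.395 with Atp2b1.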

How the data were processed

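Total RNA of 15 mucosal samples was labelled with Cy3 or Cy5 and read on Agilent arrays of 2 colours, each sample as 1 channel. The deposited intensity values are, per the file headers, scanner signals that were background-subtracted and dye-normalized within an array, and the deposited value table held the same intensity on every spot compared. Each sample's log2 signal was taken minus its 75th percentile. Spots marked non-uniform or outlying were left out, spots of a probe were averaged, and a probe was tested if well above background in all 3 samples of a segment (38846 of 41012 probes). Because the scanner's limit was lower for the stomach than for the small bowel, dim probes could pass more easily through the stomach. The brightest probe stood for each of 33674 genes. Limma 3.58.1 in R 4.3.3 fitted segment and dye, with the slide as a random block (correlation 0.361) and 9 residual degrees of freedom. The fit had first been tested on simulated data. Their noise was independent between samples, so that test did not check the slide block. Dye was called for 0 genes by limma (638 at an unadjusted p under 0.05). P-values measure the spread between isolations.

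Members, lists, markers and tests were chosen with earlier results of these data known. Named from each list were the called genes with the widest range over segments, at most 4, and, for each member, the 5 genes that correlated best with it, of which some are not reported here. Trpv5, Cyp24a1 and Kl fall outside this rule and were named after their values were seen. A fold marked "at least" for S100g rests on saturated duodenal spots. For other genes it sets the mean of the bright group against the higher of the dim probe's own signal and the lowest signal well above background. Alternatives changed the background correction, scaling, filters, probe choice, dye term, block, moderation, starting values and samples. In the colon files normexp used median spot signals, in the others mean signals.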

Additional observations from a re-analysis of the deposited data

How the results depend on the processing

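For the 4 genes, 587 values kept their direction and their side of the threshold under the alternatives that changed a setting or left out a pair of samples, 11 lost a call, 8 gained one and 10 changed direction. When single samples were left out these numbers were 614, 21, 6 and 19. Leaving out jejunum 1 and ileum 1 together was chosen after seeing the data. Of the 2 members called between duodenum and jejunum, 1 was called without the slide block, 1 without the intensity trend, 1 without the 2 duodenal samples saturated for S100g, and 0 to 3 when single samples were left out (0 without jejunum 3). Of the 2 called between duodenum and colon, 1 was called without the intensity trend, 0 without the 2 saturated samples, and 1 to 2 when single samples were left out. Atp2b1 lost its call over the 5 segments without the 2 saturated samples (adjusted p = 0.0732).

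With the replicate number as a block, 0 members were called between duodenum and jejunum, and the log2 difference of Casr between duodenum and ileum was 0.32. Atp2b1 was not called between duodenum and ileum (1.58, adjusted p = 0.140), and Casr was called lower in the ileum than in the stomach (-1.22, adjusted p = 0.0372). Whether the numbers pair the samples is not known. Deviations of 30 same-numbered pairs correlated between -0.42 and 0.29, with 6 over 0.1, and those of pairs on 1 array between 0.49 and 0.55. With 3 samples for each segment, and arrays shared by samples of different numbers, these correlations cannot decide it.

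All reversals were of differences that were not called. Under normexp background correction, Casr was 0.16 for colon minus stomach and 0.18 for duodenum minus ileum. Under quantile normalization, Casr was 0.13 for duodenum minus ileum and S100g was 0.12 for jejunum minus colon. Without the dye term Casr was 0.0043 for jejunum minus colon, and with the mean over probes Atp2b1 was -0.094 for ileum minus stomach. Without jejunum 1 and ileum 1, Atp2b1 was -0.18 for jejunum minus colon, and Casr was -0.38 for jejunum minus ileum and 0.17 for ileum minus colon. Leaving out single samples, Casr ranged from -0.48 to 0.35 for duodenum minus ileum, from -0.22 to 0.28 for jejunum minus colon, from -0.17 to 0.66 for jejunum minus ileum and from -0.71 to 0.12 for ileum minus colon. Atp2b1 ranged from -0.081 to 0.20 for ileum minus stomach and from -0.16 to 0.51 for jejunum minus colon, and S100g from -0.57 to 0.016 for jejunum minus colon. The cause was not tested.

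Over all alternatives, the number of all genes called was 27 to 1166 for duodenum minus jejunum (170 as reported), 123 to 1445 for duodenum minus ileum (952), 247 to 3630 for jejunum minus ileum (1431), 3146 to 11615 for duodenum minus colon (7832) and 3015 to 7391 for ileum minus colon (5176). Against the stomach it was 4095 to 9720 for the duodenum (7652), 4044 to 7763 for the jejunum (7228) and 4473 to 9659 for the ileum (7557). Normexp background correction moved the percentage of calls that were higher to 66.1 for colon minus stomach (40.5 as reported), 37.9 for duodenum minus colon (50.7), 38.1 for jejunum minus colon (50.9) and 32.3 for ileum minus colon (50). Of 180 calls for genes of the calcium lists, 39 were lost under normexp, 17 under quantile normalization and 5 when bright probes set the scale. Counted separately over the 180, 4 differences changed direction under normexp. Casr lies close to background, which limits what its signals can show.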

Other observations

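Genes that fill and empty the calcium stores of the cell differed between segments, with 9 of 13 called over the segments, beside 42.1% of all genes. For colon minus stomach 5 were higher and 2 lower, with a median of 0.01 beside -0.26 for all genes. The pump Atp2a3, which loads calcium into the endoplasmic reticulum, had relative signals of 70.8 to 95.2 in the colon and 1.61 to 1.83 in the stomach (45.0-fold, limma adjusted p = 2.34e-09). It was also 17.8-fold lower in the duodenum (3.21 to 5.40) than in the colon (adjusted p = 1.2e-07), the opposite order to S100g. The store-operated channel Orai1 was 5.56-fold higher in the ileum than in the stomach (adjusted p = 0.000138). The release channel Ryr3 was 5.24-fold lower in the colon than in the stomach (adjusted p = 0.000236). The related Ryr2 was 4.59-fold lower in the duodenum than in the stomach (adjusted p = 0.00299), a call lost under normexp background correction. In the duodenum 1 of 3 samples was well above background for Ryr2. Ryr2 passed the filter on dim probes through the stomach alone, so its call against the stomach is not independent of that filter.

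Of 5 genes for phosphate and magnesium uptake, 1 was called over the segments. This was Trpm6, a magnesium channel of the same superfamily as Trpv6. Its relative signal was 0.107 to 0.143 in the duodenum, 0.285 to 0.326 in the jejunum, 0.293 to 0.539 in the ileum, 1.06 to 1.31 in the colon and 0.0994 to 0.148 in the stomach. In each of the duodenum, jejunum and ileum 2 of 3 samples were well above background. The duodenum was 9.64-fold lower than the colon (adjusted p = 8.75e-06), and the duodenum and ileum differed by 3.56-fold with the ileum higher (adjusted p = 0.00658, and 0.0655 under normexp background correction), where Trpv6 ran the other way.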
